A study of Mus musculus with 4 samples.

Results

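Regulatory T (Treg) cells are CD4+ T cells that restrain immune responses, and the transcription factor Foxp3 defines them. This account describes a set of 10 transcriptional regulators in mature peripheral mouse Treg cells whose Foxp3 gene was deleted. They are Tcf7, Lef1, Satb1, Sox4, the E proteins Tcf3, Tcf4 and Tcf12, the E-protein inhibitors Id2 and Id3, and Ets1. The set was grouped under naive T cell identity, but Id2, Sox4 and Tcf4 are described below by their roles in other cells. The genes were chosen with earlier results of these data known. Their probe sets were then taken by gene symbol alone, as every probe set that the platform annotation assigns to exactly 1 of these symbols. This gave 37 probe sets for 9 of the 10 genes, out of 34945 probe sets for 18193 genes with 1 symbol. No probe set carries the symbol Tcf7 in the annotation used here, so its level was not analysed here.

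In the Foxp3-deleted group (2 arrays), the Foxp3 gene was flanked by loxP sites and the cells were exposed to Cre recombinase through HR-MMPCreGFP. The Foxp3 wild-type group (2 arrays) received the same Cre construct but carried a wild-type Foxp3 gene. Cells of both groups were isolated as CD4+ YFP+ Ly5.2+ T cells, where YFP reports exposure to Cre, and were taken 6 weeks after adoptive transfer. The labels give neither the host, the strain and age of the animals nor whether the 2 arrays of a group came from separate animals, so the spread that the p-values rest on may be technical.

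Foxp3 itself read 437.8 and 429.8 (linear intensity) in deleted cells, compared with 2693 and 2404 in wild-type cells, which leaves 17% of the wild-type signal between the log2 means. All 7 measured T cell markers, among them Cd3e and Cd4, were above a log2 intensity of 4. Their summed intensity was 15322 to 17694 in deleted cells and 13837 to 14712 in wild-type cells. Cd4 read 9.03 and 9.63 (log2 intensity) in deleted cells, compared with 8.38 and 7.15 in wild-type cells. Cd3d and Cd28 were also higher and Cd2 was lower in deleted cells without overlap, while the groups overlapped for Cd3e, Cd3g and Cd5. The CD8 markers Cd8a and Cd8b1, the NK marker Ncr1 and the B cell markers Cd79a, Pax5 and Ebf1 were below 4 on every array. The B cell marker Cd79b read 6.58 and 6.49 (log2 intensity) in wild-type cells, compared with 4.04 and 4.94 in deleted cells. Ms4a1, also a B cell marker, was above 4 only in wild-type replicate 1 (4.12). Summed intensity of the 5 myeloid markers was 583.3 to 1783 in deleted cells and 482.8 to 603.8 in wild-type cells. The highest sum was that of deleted replicate 1, where Lyz2 read 9.69 (log2 intensity) against 6.31 in deleted replicate 2, and 5.65 and 7.24 in wild-type cells. Csf1r read 9.85 and 8.93 in deleted cells, compared with 9.06 and 8.30 in wild-type cells, and Cd68 read 4.34 and 2.75 in deleted cells, compared with 2.68 and 2.64 in wild-type cells, so that both were also highest in deleted replicate 1. The myeloid markers Itgam and Cd14 were below 4 on every array. In such bulk samples, fewer cells with a transcript and less of it per cell cannot be told apart.

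Naive T cells are held in their resting, recirculating state by a small set of nuclear factors. TCF-1 (encoded by Tcf7) and LEF1 are HMG-box proteins that bind the same DNA motif, recruit beta-catenin or Groucho corepressors, and keep naive and memory programmes open. SATB1 folds chromatin into loops that anchor T cell genes, and Treg cells normally keep it low. E proteins are basic helix-loop-helix factors that bind E-box motifs as dimers, and ID proteins pair with them in complexes that cannot bind DNA, so the balance between both sets the E-protein activity of a T cell. ETS1 is an ETS-family factor that T cells express at rest.

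Id2 and Satb1 had the largest differences among these genes, and both were higher in deleted cells on every tested probe set. Probe sets were tested if their mean log2 intensity over the 4 arrays was at least 4, which 24 of the 37 passed, from 8 genes. The other 13 comprised all 8 of Sox4, 2 each of Tcf3 and Tcf4 and 1 of Satb1. Of the 24, 17 had a higher and 7 a lower mean in deleted cells, beside 50.6% of all tested probe sets with a higher mean. Groups did not overlap for 13 of them, beside 39.9% of all 13999 tested probe sets. Of these 13, 11 were higher in deleted cells (19% of all tested) and 2 lower (20.8% of all tested). At least 2-fold higher without overlap were 7 of the 24, beside 6.67% of all tested probe sets, and 0 were at least 2-fold lower without overlap, beside 4.44%. These 7 belonged to 4 genes, namely 3 to Satb1, 2 to Id2, 1 to Lef1 and 1 to Ets1, and probe sets of 1 gene are not independent. The Lef1 and Ets1 probe sets were only just past 2-fold, at log2 differences of 1.02 and 1.01. Each fell below it under some other processing, as given at the end. The count of 7 was 3 without wild-type replicate 1. The median difference over the 24 was 0.30 on the log2 scale, beside 0.0062 over all tested probe sets. None of the 24 passed an adjusted p of 0.05 in limma (Benjamini-Hochberg over all tested probe sets), where 0 of 13999 were called (0%). At an unadjusted limma p below 0.05 there were 5 of the 24, 4 higher and 1 lower, and 9.56% of all tested probe sets. With 2 arrays against 2, an exact permutation test of a single probe set cannot give a two-sided p below 0.333.

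**Figure D1:**
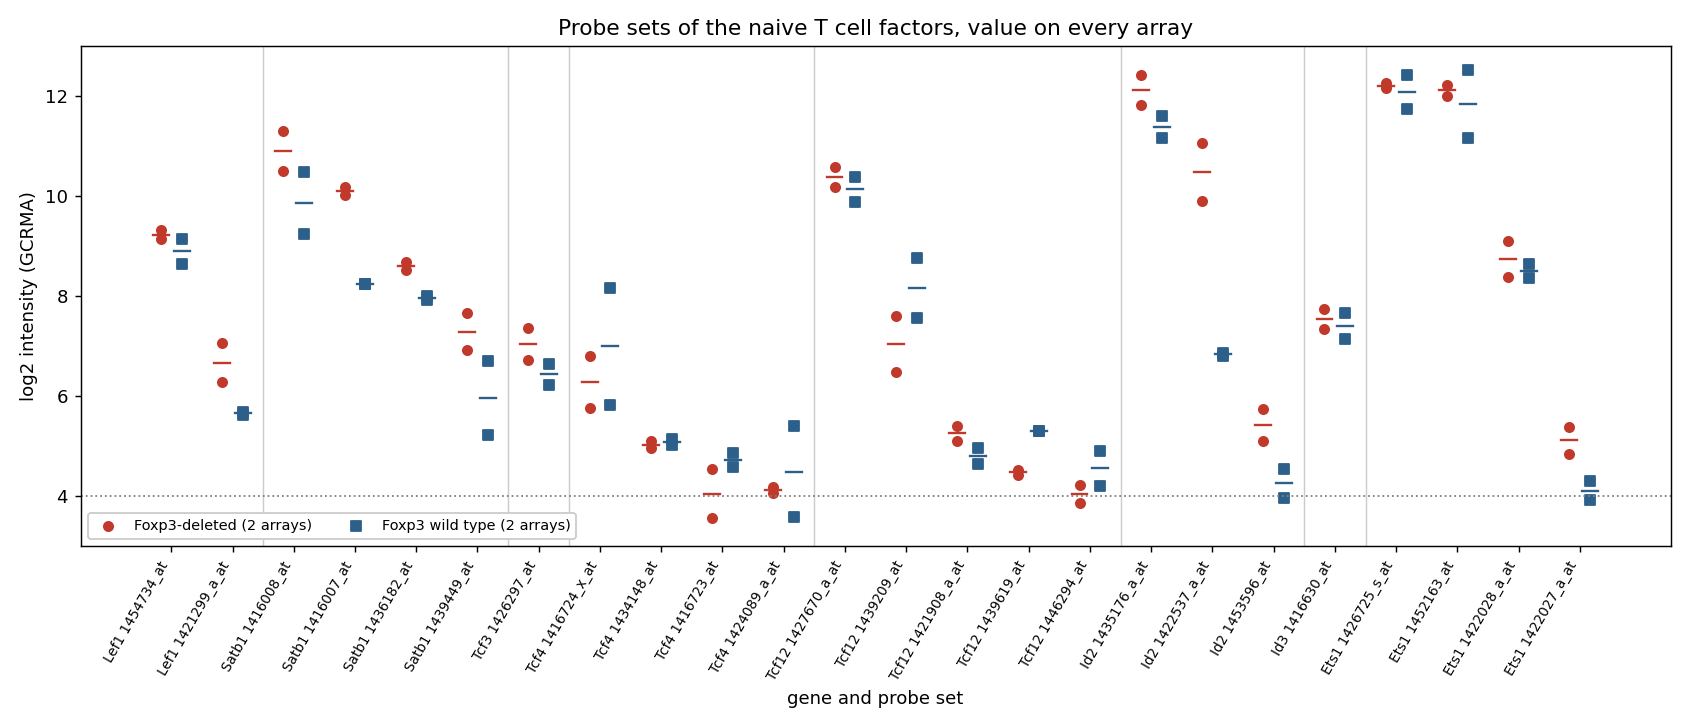
Log2 intensity (GCRMA, vertical axis) of the 24 tested probe sets on each array, with Foxp3-deleted arrays as red circles left of Foxp3 wild-type arrays as blue squares. Short lines are group means, the dotted line is the filter at 4, and grey lines separate genes. The widest separation is that of Id2 on 1422537_a_at, with 11.06 and 9.89 in deleted cells compared with 6.86 and 6.80 in wild-type cells.

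The promoters of Id2, Satb1 and Lef1 are shown because these 3 were higher on every tested probe set and at least 2-fold so, without overlap, on 1 or more. Ets1 also had such a probe set but has no entry in the promoter table. RefSeq windows (GRCm38.p6) were matched by symbol for 8 of the 10 members, 18 windows in all. Each line gives the 250 bases before the most upstream annotated start of the gene, 5′ to 3′ on the gene's own strand. Capitals mark matches, on either strand, to the E-box CANNTG, the TCF/LEF core CTTTGA, the ETS core GGAAGT or the forkhead core TGTTTA.
Id2 (chr12:25096093-25096342, minus strand): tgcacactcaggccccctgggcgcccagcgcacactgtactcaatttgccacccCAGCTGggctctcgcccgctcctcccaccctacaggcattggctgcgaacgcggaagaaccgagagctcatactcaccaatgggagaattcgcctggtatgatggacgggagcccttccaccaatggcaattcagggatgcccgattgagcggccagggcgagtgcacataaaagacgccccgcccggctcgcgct
Satb1 (chr17:51833291-51833540, minus strand): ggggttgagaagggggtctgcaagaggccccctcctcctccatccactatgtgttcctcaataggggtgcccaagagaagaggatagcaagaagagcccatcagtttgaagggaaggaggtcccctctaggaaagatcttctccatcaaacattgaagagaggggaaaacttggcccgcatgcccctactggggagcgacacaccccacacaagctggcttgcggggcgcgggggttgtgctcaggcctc
Lef1 (chr3:131110047-131110296, plus strand): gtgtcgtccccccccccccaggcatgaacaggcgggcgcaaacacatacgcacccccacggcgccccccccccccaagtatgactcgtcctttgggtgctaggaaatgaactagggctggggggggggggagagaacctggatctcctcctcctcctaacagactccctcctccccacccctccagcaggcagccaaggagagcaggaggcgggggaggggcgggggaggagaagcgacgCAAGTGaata
The Id2 window holds 1 E-box (CAGCTG) that begins 196 bases before the start, and the Lef1 window holds 1 (CAAGTG) that begins 10 bases before it. The Satb1 window holds no match to the 4 motifs, and no matches of different motifs overlapped. An E-box occurs in 66.2% of all 32851 windows of this length, the TCF/LEF core in 13.8%, the ETS core in 19.7% and the forkhead core in 12.0%. Over the 18 member windows the counts were 12, 1, 6 and 0 in the same order. A match describes letters only, and binding was not measured.

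Lef1, the HMG-box partner of TCF-1, had 2 probe sets. On 1421299_a_at it read 6.27 and 7.06 (log2 intensity) in deleted cells, compared with 5.61 and 5.69 in wild-type cells. Both deleted arrays were above both wild-type arrays. The log2 difference was 1.02 (SE 0.42, 95% interval -0.05 to 2.08, adjusted p = 0.546 in limma), and it was 0.62 without deleted replicate 2. On the brighter 1454734_at Lef1 read 9.13 and 9.32 in deleted cells and 8.64 and 9.14 in wild-type cells. The groups overlapped there, with a difference of 0.33 (SE 0.34, interval -0.53 to 1.20), or 0.09 without wild-type replicate 1. Lef1 therefore had the same direction on both probe sets, and only the dimmer one separated the groups.

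Satb1, the chromatin organiser, was higher in deleted cells on all 4 tested probe sets, and the groups were apart on each. On 1416007_at it read 10.02 and 10.17 (log2 intensity) in deleted cells, compared with 8.24 and 8.25 in wild-type cells. The 2 arrays of each group lay within 0.15 of one another, and the nearest arrays of the groups were 1.77 apart. This is 3.61-fold, a log2 difference of 1.85 (SE 0.30, 95% interval 1.1 to 2.61, unadjusted p = 0.00144, adjusted p = 0.17 in limma), and with any 1 array left out it lay between 1.78 and 1.93. On 1436182_at Satb1 read 8.68 and 8.52 in deleted cells and 7.92 and 8.0 in wild-type cells. That difference was smaller, 0.64 (SE 0.32, interval -0.18 to 1.46), and also narrow in its spread.

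Both remaining Satb1 probe sets scattered more. On 1439449_at the values were 6.91 and 7.65 in deleted cells and 5.22 and 6.71 in wild-type cells, a difference of 1.32 (SE 0.62) that was 0.58 without wild-type replicate 1. On the brightest, 1416008_at, they were 11.30 and 10.49 in deleted cells and 9.23 and 10.49 in wild-type cells. Deleted replicate 2 and wild-type replicate 2 were 0.0047 apart there, so the separation rests on wild-type replicate 1 and deleted replicate 1. The difference of 1.03 (SE 0.53) was 0.41 without wild-type replicate 1 and 0.63 without deleted replicate 1. A further probe set, 1439315_at, lay between 2.18 and 2.24 on all arrays, near the floor of the GCRMA scale, and was not tested.

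Sox4, an HMG-box factor of the SOXC group that acts in T cell progenitors, gave no measurable signal. Its 8 probe sets lay between 1.58 and 2.57 (log2 intensity) over all 4 arrays, near the floor, and none was tested. A level this low gives no bound on a difference.

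The sign of the mean difference varied among the E proteins and, for Tcf12, between probe sets. Of their 10 tested probe sets, 0 passed the adjusted threshold. Tcf3, which encodes E2A, had 1 tested probe set, 1426297_at. It read 6.72 and 7.35 (log2 intensity) in deleted cells, compared with 6.22 and 6.64 in wild-type cells. The groups were 0.08 apart, with a difference of 0.60 (SE 0.41, 95% interval -0.45 to 1.66, adjusted p = 0.713 in limma), or 0.29 without deleted replicate 2 and 0.40 without wild-type replicate 1. Both other Tcf3 probe sets were near the floor.

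Tcf12, which encodes HEB, had 5 tested probe sets that differed in direction, 2 with a higher and 3 with a lower mean in deleted cells. The brightest, 1427670_a_at, read 10.57 and 10.17 in deleted cells and 9.88 and 10.38 in wild-type cells. These groups overlapped, with a difference of 0.24 (SE 0.33, interval -0.60 to 1.07). On 1421908_a_at Tcf12 was higher, 5.11 and 5.41 in deleted cells compared with 4.97 and 4.64 in wild-type cells, a difference of 0.45 (SE 0.34), or 0.29 without wild-type replicate 2. On 1439619_at it was lower, 4.43 and 4.52 in deleted cells compared with 5.30 and 5.30 in wild-type cells. That log2 difference was -0.82 (SE 0.30, interval -1.60 to -0.05, unadjusted p = 0.0407, adjusted p = 0.493 in limma), and between -0.87 and -0.78 with any 1 array left out. Both 1439619_at and 1421908_a_at were dim, at mean log2 intensities of 4.89 and 5.03 over the 4 arrays. Each remaining pair of groups overlapped, with differences of -1.13 (SE 0.61) on 1439209_at and -0.52 (SE 0.37) on 1446294_at. Without wild-type replicate 1 these were -0.53 and -0.17. For Tcf12 the direction therefore depended on the probe set, and which transcripts each one detects was not given in the sources used here.

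Tcf4, which encodes E2-2, is the E protein of plasmacytoid dendritic cells and B cells. Its 4 tested probe sets all had a lower mean in deleted cells, but 1 wild-type array carried much of this. On 1416724_x_at, whose suffix marks probes that may also match other sequences, it read 5.75 and 6.81 (log2 intensity) in deleted cells, compared with 8.16 and 5.82 in wild-type cells. Wild-type replicate 1 stood above the other 3 arrays. The difference of -0.71 (SE 0.87) was 0.46, the opposite sign, without it. On 1424089_a_at wild-type replicate 1 was again highest, with 4.07 and 4.18 in deleted cells compared with 5.41 and 3.57 in wild-type cells, and the difference of -0.36 (SE 0.64) was 0.55 without it.

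The third Tcf4 probe set, 1416723_at, separated the groups by 0.05, at 3.56 and 4.53 in deleted cells and 4.87 and 4.58 in wild-type cells. Its difference was -0.68 (SE 0.43), or -0.19 without deleted replicate 1. The fourth, 1434148_at, lay between 4.96 and 5.15 on all arrays (difference -0.06, SE 0.31). The B cell marker Cd79b was also lower in deleted cells, at 4.04 and 4.94 against 6.58 and 6.49 in wild-type cells. Of the 5 measured B cell markers, 3 were below 4 on every array, and the summed intensity was 48.9 to 62.2 in deleted cells and 123.9 to 134.4 in wild-type cells. The plasmacytoid dendritic cell markers Siglech and Cox6a2 were below 4 on every array. The summed intensity of the 4 markers of this cell type was 436.2 to 503.0 in deleted cells and 224.7 to 378.9 in wild-type cells. Nearly all of this sum came from Bst2 and Ccr9, and for each of them the groups overlapped. Ccr9 is also counted below among the genes of naive T cell identity. The part of B cells or plasmacytoid dendritic cells in the Tcf4 values was not tested.

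Id2, the ID protein of effector and innate-like lymphocytes, had the widest difference of all member probe sets. On 1422537_a_at it read 11.06 and 9.89 (log2 intensity) in deleted cells, compared with 6.86 and 6.80 in wild-type cells. The wild-type arrays were 0.05 apart, the deleted arrays 1.17 apart, and the nearest arrays of the groups 3.03 apart. The group means were 10.48 ± 0.83 in deleted and 6.83 ± 0.04 in wild-type cells (SD, n = 2 each). The fold was 12.5, or a log2 difference of 3.65 (SE 0.48, 95% interval 2.42 to 4.88, unadjusted p = 0.000593, adjusted p = 0.138 in limma). Leaving out deleted replicate 1 gave 3.06, and leaving out deleted replicate 2 gave 4.23.

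The other Id2 probe sets had the same direction and much smaller differences. The brightest, 1435176_a_at, read 12.43 and 11.81 in deleted cells and 11.60 and 11.16 in wild-type cells, a difference of 0.74 (SE 0.31, interval -0.07 to 1.54), which is 1.67-fold. It was 0.43 without deleted replicate 1. On the dim 1453596_at Id2 read 5.73 and 5.10 in deleted cells and 4.54 and 3.97 in wild-type cells, a difference of 1.16 (SE 0.40, interval 0.14 to 2.19, unadjusted p = 0.0334), or 2.24-fold. The interval of 1422537_a_at lies wholly above those of both others, so the size of the Id2 difference depends on the probe set while its direction does not. On all 3 probe sets deleted replicate 1 read above deleted replicate 2, the array pair in which Lyz2 also differed. Wild-type replicate 1 likewise read above wild-type replicate 2 for Id2 on all 3. In that pair Lyz2 was lower in replicate 1 (5.65 against 7.24), while Csf1r was higher there (9.06 against 8.30). The part of myeloid RNA in the Id2 values was not tested, and the Id2 difference on 1422537_a_at without deleted replicate 1 is given above.

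Id3, the ID protein that Egr factors induce downstream of the T cell receptor, showed no separation of the groups. Its single probe set, 1416630_at, read 7.34 and 7.73 (log2 intensity) in deleted cells, compared with 7.15 and 7.66 in wild-type cells. The groups overlapped, with a difference of 0.13 (SE 0.39, 95% interval -0.86 to 1.12, adjusted p = 0.946 in limma). That interval holds differences of either sign, so these arrays do not show that Id3 was equal. The difference between Id2 and Id3 itself was not tested.

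Ets1 was bright in both groups. On 1426725_s_at it read 12.15 and 12.25 (log2 intensity) in deleted cells, compared with 11.74 and 12.42 in wild-type cells, a difference of 0.12 (SE 0.29, 95% interval -0.62 to 0.86). On 1452163_at it read 12.22 and 12.00 in deleted cells and 11.17 and 12.51 in wild-type cells, a difference of 0.27 (SE 0.47), and on 1422028_a_at the difference was 0.23 (SE 0.39). The groups overlapped on these 3 probe sets, and each of the 3 differences changed sign with 1 array left out. The dim 1422027_a_at alone separated the groups, with 4.84 and 5.38 in deleted cells compared with 3.91 and 4.29 in wild-type cells. Its difference was 1.01 (SE 0.36, unadjusted p = 0.0362, adjusted p = 0.476 in limma), close to the floor.

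**Figure D2:**
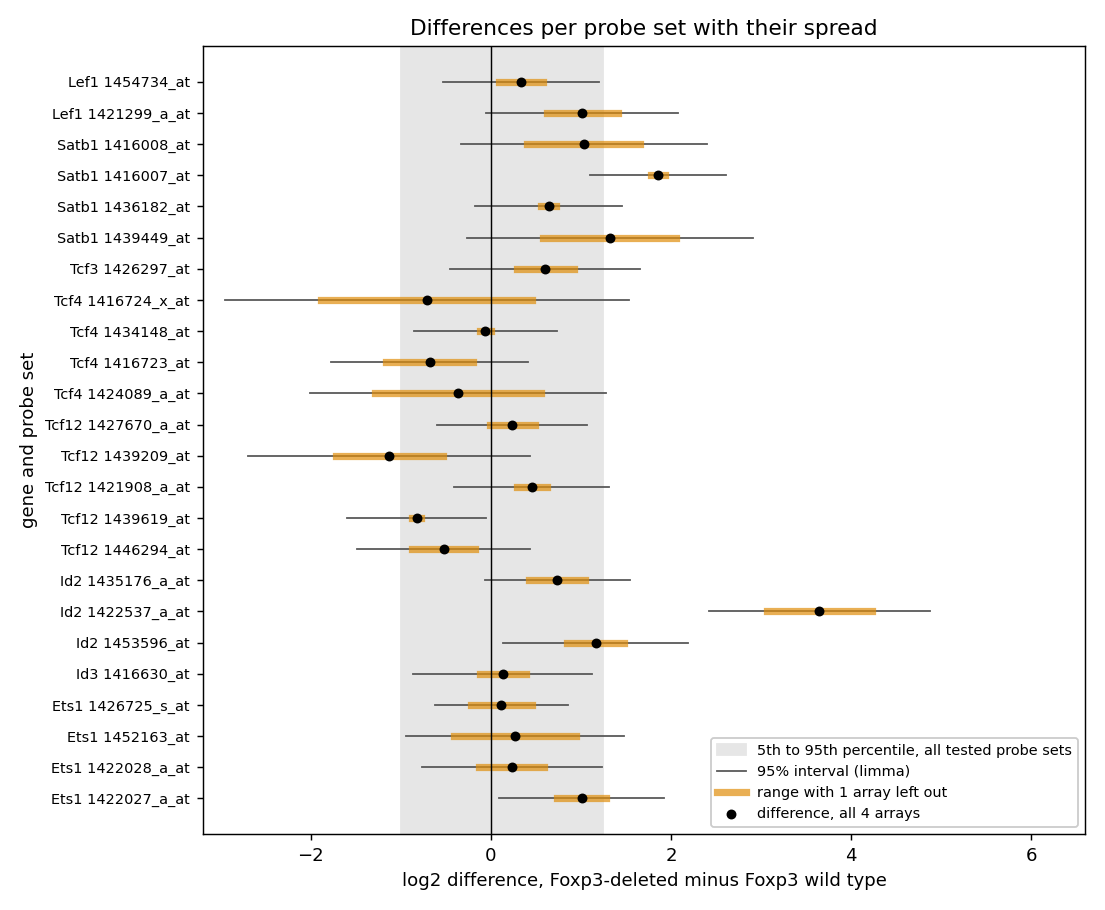
Log2 difference, Foxp3-deleted minus Foxp3 wild type (horizontal axis), for each tested probe set. Points are the values from all 4 arrays, thin lines the 95% limma intervals, orange bars the range with 1 array left out, and the grey band the 5th to 95th percentile of all tested probe sets (-0.996 to 1.24). Id2 on 1422537_a_at (3.65), Satb1 on 1416007_at (1.85) and Satb1 on 1439449_at (1.32) lie above the band, and Tcf12 on 1439209_at (-1.13) lies below it.

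**Figure D3:**
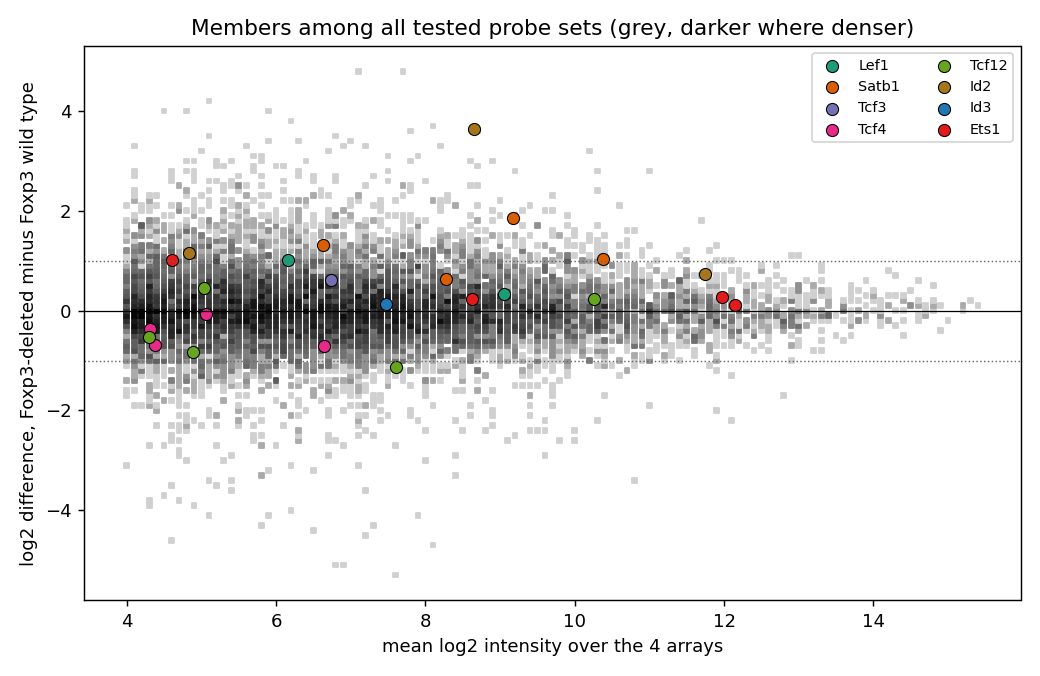
Mean log2 intensity over the 4 arrays (horizontal axis) against the log2 difference, Foxp3-deleted minus Foxp3 wild type (vertical axis). Grey squares are all 13999 tested probe sets, darker where denser, coloured points the 24 of the members, and dotted lines 2-fold differences. Id2 on 1422537_a_at, at a mean of 8.65 and a difference of 3.65, lies above most of the cloud, while most member probe sets lie within the dotted lines.

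The partners of these factors were described on the brightest probe set of each gene, beside the same counts over 8629 genes. Of these 8629, 4153 had a higher mean in deleted cells. At least 2-fold higher without overlap were 5.57%, and 4.93% were at least 2-fold lower without overlap. In this and the next 2 lists no gene passed the adjusted threshold in limma, as was so for all genes (0%). All these lists were chosen with earlier results of these data known. Of 13 tested TCF/LEF relatives and co-factors, 11 had a higher mean in deleted cells, with a median log2 difference of 0.31 beside -0.02 over all genes. Tle5, a short Groucho-family protein, read 6.01 and 7.84 (log2 intensity) in deleted cells, compared with 3.78 and 4.06 in wild-type cells, whose mean of 3.92 is below the filter. It was the 1 gene of the list past 2-fold without overlap (adjusted p = 0.294 in limma). Its size is only bounded, and with array values under 4 set to 4 it was at least 7.45-fold higher. The Groucho corepressor Tle3 differed by 0.77 (SE 0.31). Its relative Tle1 had a deleted mean just below the filter and was at least 1.71-fold lower on the same scale. Axin2, a scaffold of the beta-catenin destruction complex and a TCF/LEF target gene, differed by 0.70 (SE 0.44). The TCF relatives Tcf7l1 and Tcf7l2 were below the filter.

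For E-protein partners and regulators of ID genes the median difference was 0.04 over 6 tested genes, 4 of them higher in mean. Lyl1, a basic helix-loop-helix partner of E proteins, read 4.20 and 3.74 (log2 intensity) in deleted cells, compared with 6.08 and 4.93 in wild-type cells. The deleted mean of 3.97 is below the filter, so that only a bound can be given, at least 2.65-fold lower with array values under 4 set to 4. It was the 1 gene past 2-fold without overlap in this list (adjusted p = 0.435 in limma). Ldb1, an adaptor of LIM-domain complexes, had a wild-type mean of 3.79, below the filter, and was at least 1.61-fold higher on that scale. Egr2, an inducer of Id3, differed by -0.37 (SE 0.30) and the corepressor gene Cbfa2t2 by 0.07 (SE 0.33). Of the other ID genes, Id1 and Id4 were below the filter. Among 8 tested ETS relatives 5 had a higher mean (median 0.26), and 0 were 2-fold apart without overlap. Gabpa differed by -0.90 (SE 0.55), Elk4 by 0.60 (SE 0.32), Elf1 by -0.48 (SE 0.38) and Etv3 by 0.42 (SE 0.55). Other probe sets of Elk4 (-0.38) and Elf1 (0.74) had the opposite sign. The SATB1 and SOX4 relatives Sox11 and Sox12 were below the filter.

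Of 16 tested genes of naive T cell identity, 12 had a higher mean in deleted cells, beside 4153 of all 8629 genes. The median difference was 0.81, beside -0.02 over all genes. At least 2-fold higher without overlap were 6 of the 16 (5.57% of all genes), and 1 was at least 2-fold lower (4.93%). This list was chosen with earlier results of these data known. None of the 16 passed the adjusted threshold. The 6 higher genes were Igfbp4, Actn1, S1pr1, Klf2, Runx1 and Bcl2, and 1 of them, S1pr1, had a wild-type mean below the filter. With array values under 4 set to 4 the counts were again 6 and 1 and the median was 0.70. Igfbp4, a secreted binding protein that marks naive T cells, read 11.64 and 11.46 (log2 intensity) in deleted cells, compared with 9.36 and 8.94 in wild-type cells (difference 2.40, SE 0.29, adjusted p = 0.12 in limma). This was its brightest probe set, and its 5 tested probe sets ranged from 0.37 to 3.39. Actn1, which encodes alpha-actinin-1, differed by 1.96 (SE 0.30). S1pr1, the receptor for egress from lymphoid tissue, averaged 5.06 in deleted cells and 3.17 in wild-type cells, and was at least 2.08-fold higher with array values under 4 set to 4. Myb, a factor of progenitors and of effector Treg cells, went the other way. It read 7.56 and 8.03 in deleted cells, compared with 10.63 and 10.11 in wild-type cells (difference -2.58, SE 0.37, adjusted p = 0.153 in limma), and its 3 tested probe sets lay between -3.24 and -1.38.

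**Figure D4:**
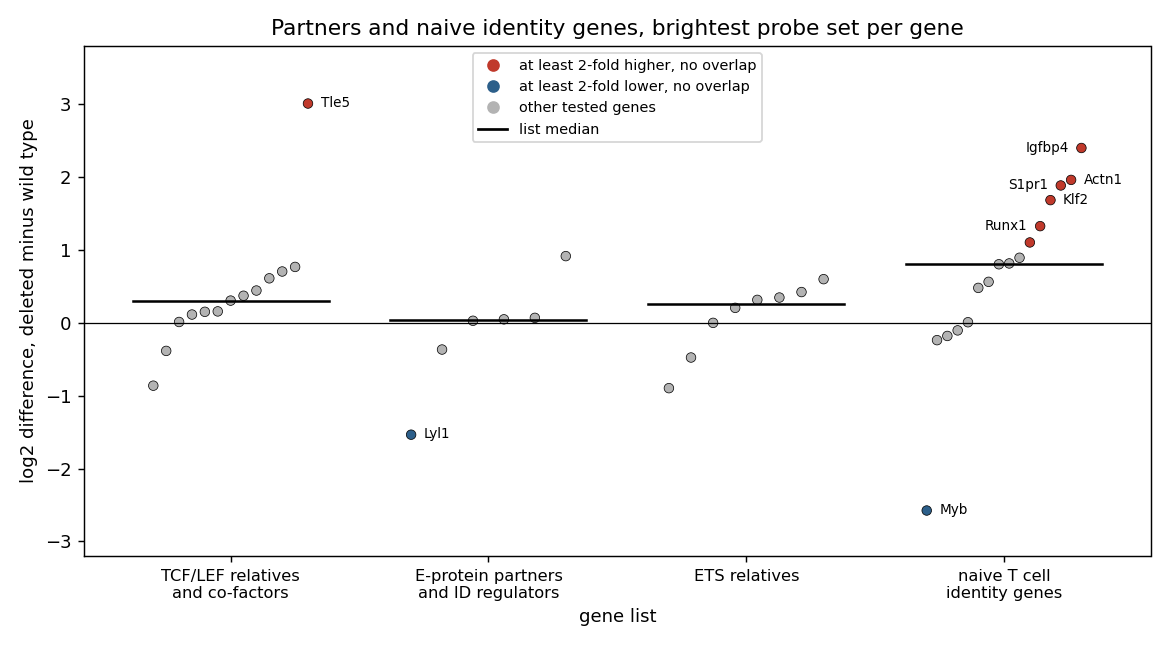
Log2 difference, Foxp3-deleted minus Foxp3 wild type (vertical axis), of each tested gene in 4 lists (horizontal axis), on its brightest probe set. Black lines are list medians (0.31, 0.04, 0.26 and 0.81 from left to right), red points genes at least 2-fold higher without overlap (1, 0, 0 and 6) and blue points genes at least 2-fold lower without overlap (0, 1, 0 and 1). Over all 8629 genes, 5.57% were at least 2-fold higher and 4.93% at least 2-fold lower without overlap. The points of Tle5, Tle1, Lyl1, Ldb1 and S1pr1 have 1 group mean below the filter, so their sizes are not exact.

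For the 3 members with the largest difference on their brightest tested probe set, the nearest profiles among 13999 probe sets were found by Euclidean distance between log2 values centred over the 4 arrays. Satb1 on 1416008_at was nearest to Rsf1 (distance 0.06), Rabgap1l (0.08) and Rpl13a (0.13). Nearest to Id2 on 1435176_a_at were Hspbp1 (0.08), Psmd11 (0.12) and Prpf31 (0.13). Tcf4 on 1416724_x_at, where wild-type replicate 1 stands apart, was nearest to Ccsap (0.25), Apobec2 (0.27) and Dhrs4 (0.30). With 4 arrays such likeness describes only these samples.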

How the data were processed

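RNA of 4 samples was profiled on 1 single-colour oligonucleotide array each, after extraction with Qiagen RNeasy and labelling with the Ambion Message Amp II kit, per the labels' protocols. The deposited values are linear intensities, and the authors' tool was GCRMA 1.1.3 per the submitters' processing notes. It corrects each probe for a background predicted from its sequence, puts the arrays on a common scale and combines the probes of a set, which compresses differences among dim probe sets near a floor. Its other settings were not stated. Precision is limited by having 2 arrays per group.

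The log2 of each value was taken with no pseudocount. Of 45101 probe sets, 34958 had 1 gene symbol, 932 several and 9211 none. Those with 1 symbol that were not among the 64 controls were kept (34945). Entrez identifiers of 34741 matched the GRCm38.p6 gene table and changed 0 symbols. The 13999 probe sets whose mean over the arrays reached 4 on this scale were tested two-sided with limma 3.58.1 in R 4.3.3 (eBayes with trend), with 2 degrees of freedom left by the model and 3.06 from the prior. The threshold was a Benjamini-Hochberg adjusted p of 0.05 over all tested probe sets. Tables and plots used Python 3.11.15, pandas 2.3.3 and matplotlib 3.10.9. The fit was tested on simulated data.

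The members, the gene lists, the tests and the alternatives were chosen with earlier results of these data known. The rule for named genes took all member probe sets, Foxp3, up to 4 genes per list with the largest difference and the 3 nearest profiles of 3 members. Klf2, Runx1, Bcl2 and the cell type markers, among them Lyz2, Csf1r, Cd68 and Cd79b, were named after their values were seen. Alternatives covered the filter, a floor at 4, quantile normalization, median centring, no trend, 1 probe set per gene, the replicate number as a block and leaving out each array.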

Additional observations from a re-analysis of the deposited data

How the results depend on the processing

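Besides leaving out an array, 3 settings can move a difference of means (raising values below 4 to 4, quantile normalization and median centring), and under these all 72 differences of the 24 tested member probe sets kept their direction. The other settings change only its p. None of the 24 passed the threshold under any setting, the lowest adjusted p being 0.0532 in limma (Id2 on 1422537_a_at, median centring). Over all probe sets 18 were called with the stricter filter at 6 (8902 tested), 15 with quantile normalization and 28 with median centring, against 0. The count of member probe sets at least 2-fold apart without overlap, 7, was 6 with quantile normalization or the floor at 4. It was 5 with median centring or the stricter filter. With median centring Lef1 on 1421299_a_at (log2 difference 0.997) and Ets1 on 1422027_a_at (0.991) fell below 2-fold. The count was 1 with 1 probe set per gene, where 8 are tested. Over all 8629 genes, 5.57% were higher and 4.93% lower by this measure. That 1 was Satb1 on 1416008_at, higher in deleted cells, whose groups were 0.0047 apart. With an array left out the count lay between 3 and 9, but a group of 1 array overlaps less easily with the other. Leaving out an array changed the sign for 8 of the 24, with ranges of -0.13 to 0.59 (Ets1 1422028_a_at), -0.22 to 0.46 (Ets1 1426725_s_at), -0.40 to 0.95 (Ets1 1452163_at), -0.12 to 0.39 (Id3 1416630_at), -0.013 to 0.49 (Tcf12 1427670_a_at), -1.88 to 0.46 (Tcf4 1416724_x_at), -1.28 to 0.55 (Tcf4 1424089_a_at) and -0.13 to 0.0070 (Tcf4 1434148_at). The groups share replicate numbers, but the deviations of same-numbered arrays correlated at -0.27, so the numbers were not taken as pairs. With the replicate block 0 probe sets were called (lowest adjusted p = 0.307 in limma), and with the crossed pairing, chosen after seeing the data, also 0. Probe sets near the floor give no measurable difference. The cause of these shifts was not tested.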
